A study of Sus scrofa with 6 samples.

Results

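The microRNAs (miRNAs) ssc-miR-224 and ssc-miR-320 were followed in the skin of Xiang pigs, a small breed kept in China (Sus scrofa). They are 2 of the 898 miRNAs in the deposited table, and their rows were taken by name. Both were chosen by their RPM values in these same 6 libraries, because they were lower in black skin than in white skin, so the difference between black and white skin is given for them as a description, with no test.

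Small RNA was sequenced from whole skin in 6 libraries, 3 of black skin (S03, S04 and S05) and 3 of white skin (S02, S06 and S07). All samples carry the same strain, tissue and handling in the labels, namely Xiang skin freed of hair and kept cold in a preservative. Genotype, age, sex, body site and animal are not given in the labels, and differences between the groups in any of these cannot be told apart from skin colour. The labels also do not say that libraries of a colour came from separate animals, so every p-value reflects only how these libraries vary, and that variation may be technical.

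miRNAs are short RNAs that guide a silencing complex to messenger RNAs by base pairing. Most are cut in the nucleus from a long transcript by Drosha, and then by Dicer in the cytoplasm. The miR-224 precursor is known in mammals from within the gene GABRE, which encodes the epsilon subunit of the GABA-A receptor, beside the precursor of miR-452. In mouse ovarian granulosa cells, miR-224 is known to respond to TGF-beta and to target Smad4. In mouse and human cells, miR-320 is known for another route, in which the precursor is made at a transcription start with a 5′ cap and reaches Dicer without a cut by Drosha. Melanin, the pigment of black skin, is made by melanocytes, which are a minority of the cells in whole skin.

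In the pig assembly Sscrofa11.1 the precursor MIR224 spans 81 bases at chrX:123283427-123283507. It lies inside the annotated span of GABRE (chrX:123278459-123296070), and the gene table used here does not resolve exons and introns. MIR452 (chrX:123284480-123284559) lies 973 bases away inside the same gene. MIR320 spans 80 bases at chr14:6520901-6520980 and shares the 19 bases of highest coordinate with the annotated span of POLR3D (chr14:6520962-6529526), the gene of a subunit of RNA polymerase III. Its nearest other neighbour, PHYHIP, lies 14154 bases away.

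The libraries held between 6454685 (S06) and 10165949 (S07) reads assigned to the listed miRNAs. Values are RPM, in which the reads of a library sum to 1000000 and 1 read is worth 0.0984 to 0.155. The first principal component of the 454 miRNAs kept for testing (50.9% of the variance) separated the colours, and the second (20.3%) placed S02, a white library, away from the rest at -9.24, against -3.82 to 6.10 for the other 5. Across these 454 miRNAs, 32 differed between black and white skin (7.05%; limma on log2(RPM + 1), Benjamini-Hochberg adjusted p under 0.05). Of these, 14 were lower in black skin (3.08% of the 454) and 18 higher (3.96%). The 14 include both chosen miRNAs, for which this is not read as a test. Leaving out predicted identifiers before scaling gave 16 higher and 19 lower, leaving out the 10 most abundant miRNAs 29 higher and 11 lower, and edgeR on recovered reads 13 higher and 17 lower. On leaving out 1 library, 7 were called where that was S05 or S06, 8 where it was S03, 16 where it was S04, 19 where it was S07 and 37 where it was S02. The keratinocyte miRNA ssc-miR-205, a defining marker of skin epithelium, was present at 11483 to 16639 RPM in black skin and 14898 to 22514 RPM in white skin.

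ssc-miR-224 was a scarce miRNA that was scarcer still in black skin. Black skin gave 4.78 RPM in S03, 14.5 RPM in S04 and 5.90 RPM in S05, against 35.3 RPM in S02, 54.4 RPM in S06 and 34.0 RPM in S07 from white skin. The highest black library, S04, stood 2.35-fold under the lowest white one, S07, so the groups did not overlap. Every black library was below every white one for 63 of the 454 tested miRNAs (13.9%), and nothing is read from that share, since this pattern was the reason for the choice. The group means were 8.38 ± 5.29 RPM in black skin and 41.3 ± 11.4 RPM in white skin (SD, n = 3 each), a level 4.92-fold lower in black skin. Black minus white, the log2(RPM + 1) values differed by -2.28 with a fitted standard error of 0.41. It was the fourth lowest of the 454 differences, whose median was 0.00. Without the white library S02 it was -2.37.

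The reads behind these levels were few but well above the counting limit. ssc-miR-224 had 37 reads in S03, 106 in S04 and 51 in S05, and 258 in S02, 351 in S06 and 346 in S07. The exact 95% Poisson interval, which covers counting error only, ran from 3.36 to 6.58 RPM in S03, from 4.39 to 7.75 RPM in S05 and from 11.8 to 17.5 RPM in S04. S03 and S05 therefore could not be set apart, while S04 lay above both. Among the white libraries the intervals of S07 (30.5 to 37.8 RPM) and S02 (31.2 to 39.9 RPM) overlapped, and S06 lay above them (48.8 to 60.4 RPM). By rank over all 898 miRNAs, ssc-miR-224 stood between 225 (S04) and 294 (S03) in black skin and between 152 (S06) and 184 (S07) in white skin.

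**Figure D1:**
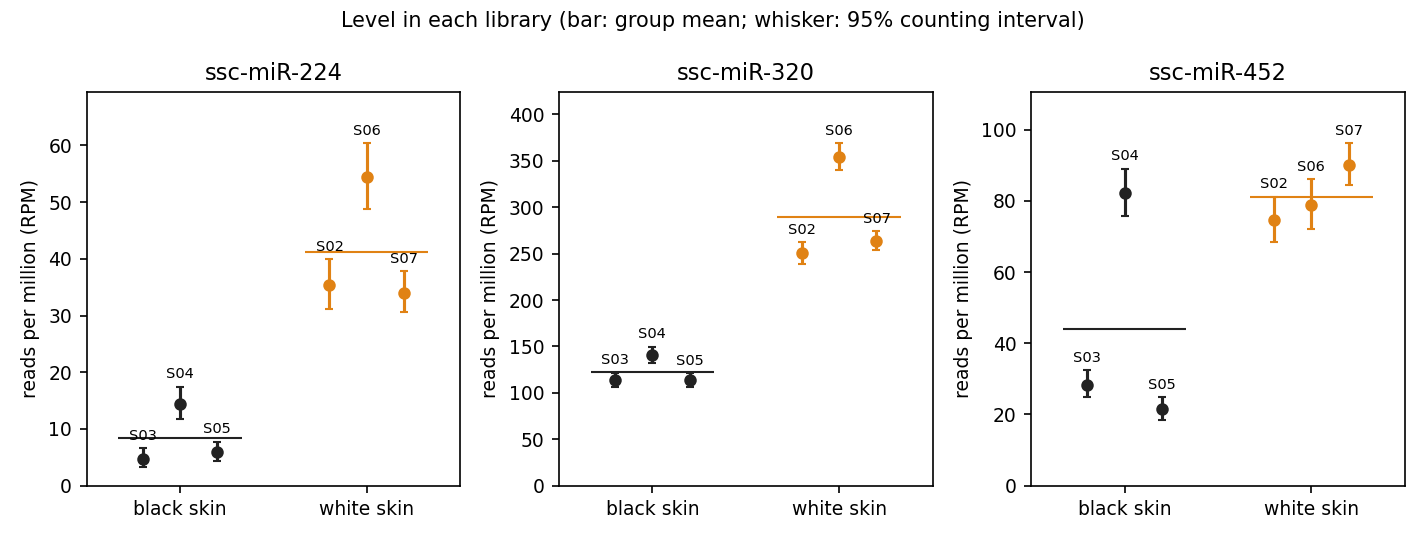
Level in RPM (linear axis from 0) of ssc-miR-224, ssc-miR-320 and ssc-miR-452 in each library, with black skin at the left and white skin at the right; points are libraries, whiskers exact 95% counting intervals and bars group means. For ssc-miR-224 and ssc-miR-320 all 3 black libraries lie under all 3 white ones, with S04 the highest black library, while ssc-miR-452 reached 82.2 RPM in S04, above the white library S06 (78.9 RPM).

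ssc-miR-320 was more abundant and varied less within each colour. Black skin gave 114.0 RPM in S03, 140.9 RPM in S04 and 113.8 RPM in S05, against 250.7 RPM in S02, 354.0 RPM in S06 and 264.1 RPM in S07 from white skin. The groups again did not overlap, and the lowest white library, S02, stood 1.78-fold above the highest black one, S04. The group means were 123 ± 15.6 RPM in black skin and 290 ± 56.2 RPM in white skin (SD, n = 3 each), a level 2.36-fold lower in black skin. In log2(RPM + 1) the difference, black minus white, was -1.22 with a fitted standard error of 0.22, the twelfth lowest of the 454. Without S02 it was -1.32. It rested on 883 to 1033 reads per black library and 1830 to 2685 reads per white library. S03 (106.6 to 121.8 RPM) and S05 (106.8 to 121.1 RPM) had overlapping counting intervals, as had S02 (239.3 to 262.4 RPM) and S07 (254.2 to 274.3 RPM). Its rank over all miRNAs was 120 to 132 in black skin and 88 to 98 in white skin.

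**Figure D2:**
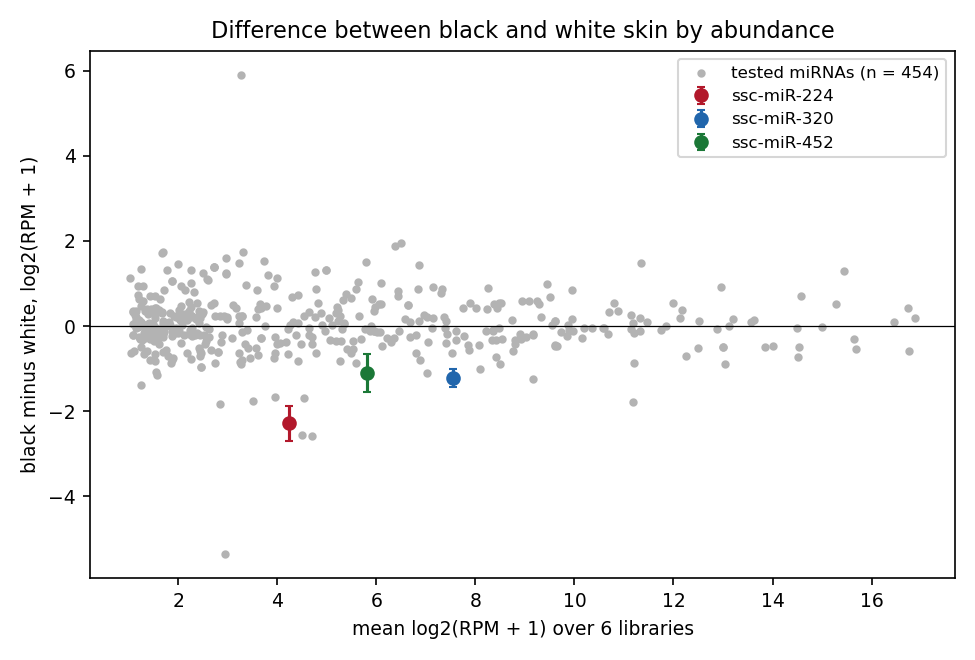
Difference between black and white skin (vertical axis, black minus white in log2(RPM + 1)) against mean abundance (horizontal axis, mean log2(RPM + 1) over 6 libraries) for the 454 tested miRNAs; whiskers on the 3 marked miRNAs are fitted standard errors. ssc-miR-224 lies at -2.28, ssc-miR-320 at -1.22 and ssc-miR-452 at -1.11, where the median of all differences is 0.00.

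Both miRNAs varied between libraries of 1 colour by more than counting error gives. The SD of log2 RPM of ssc-miR-224 was 0.85 in black skin and 0.38 in white skin (n = 3 each), where counting alone gives 0.20 and 0.08. For ssc-miR-320 it was 0.18 in black skin and 0.27 in white skin, where counting gives 0.05 and 0.03. On the log2(RPM + 1) scale, ssc-miR-224 had a black SD of 0.76, larger than in 94.3% of the tested miRNAs, and a white SD of 0.37, close to the median white SD of 0.35. ssc-miR-320 had SDs of 0.18 in black skin and 0.27 in white skin, both under the medians over all tested miRNAs (0.26 in black and 0.35 in white). So ssc-miR-224 was uneven among the black libraries, where S04 held 3.03 times as much as S03, whereas the highest and lowest black libraries of ssc-miR-320 differed 1.24-fold.

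The ratio of the 2 miRNAs within a library does not depend on how libraries are scaled. The log2 ratio of ssc-miR-224 to ssc-miR-320 was -4.58, -3.28 and -4.27 in S03, S04 and S05, against -2.83, -2.70 and -2.96 in S02, S06 and S07. It averaged -4.04 ± 0.68 in black skin and -2.83 ± 0.13 in white skin (SD, n = 3 each), with no overlap. The black minus white difference of -1.22 comes from the same contrast that chose the members and is a description. Hence ssc-miR-224 was lower relative to ssc-miR-320 in each black library than in any white one. The black library S04 was again the nearest to white skin.

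The precursor neighbour ssc-miR-452 was not chosen for its level, and it did not pass the test. Black skin gave 28.4 RPM in S03, 82.2 RPM in S04 and 21.5 RPM in S05, against 74.7 RPM in S02, 78.9 RPM in S06 and 90.1 RPM in S07 from white skin. S03 and S05 were low, and S04 lay within the white range, so the groups overlapped. The means were 44.0 ± 33.2 RPM in black skin and 81.2 ± 7.99 RPM in white skin (SD, n = 3 each), a difference of -1.11 with standard error 0.44 (unadjusted p = 0.0330, limma over all 454 miRNAs, adjusted p = 0.154). Without S04 it was -1.67 and passed the threshold (limma, adjusted p = 0.0249), so this 1 library decided the call. Its black SD on the log2(RPM + 1) scale, 0.997, was larger than in 98.0% of the tested miRNAs, while its white SD was 0.14.

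Both miRNAs of the GABRE locus were thus highest in S04 among the black libraries, as was ssc-miR-320. S04 was also the black library nearest to white skin on the first principal component of the 454 tested miRNAs. It lay at -6.2 there, against -9.3 in S03 and -8.2 in S05, with the white libraries at 6.4 to 10.1. That S04 stood nearer to white skin is therefore not particular to these miRNAs. In white skin ssc-miR-224 and ssc-miR-320 were highest in S06, and ssc-miR-452 was highest in S07. The log2 ratio of ssc-miR-224 to ssc-miR-452 was -2.57, -2.51 and -1.87 in S03, S04 and S05, against -1.08, -0.54 and -1.40 in S02, S06 and S07. It averaged -2.32 ± 0.39 in black skin and -1.01 ± 0.44 in white skin (SD, n = 3 each) with no overlap. Since ssc-miR-224 was chosen for being low in black skin, this lower ratio is a description only. For ssc-miR-320 to ssc-miR-452 the log2 ratio was 1.73 ± 0.85 in black skin and 1.82 ± 0.31 in white skin, and the groups overlapped.

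**Figure D3:**
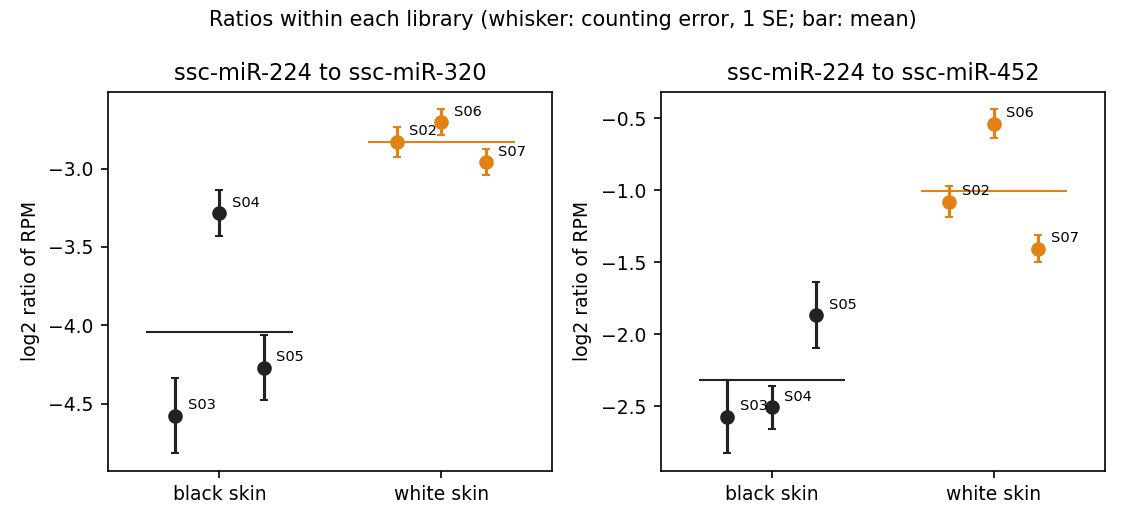
Log2 ratio of ssc-miR-224 to ssc-miR-320 (left panel) and to ssc-miR-452 (right panel) in each library, with black skin left of white skin; points are libraries, whiskers the counting standard error and bars group means. In both panels the 3 black libraries lie under the 3 white ones, and S04 is near white skin in the left panel (-3.28) but not in the right one (-2.51).

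Likeness of profile was measured as the root mean square difference between log2(RPM + 1) values over the 6 libraries, each miRNA centred on its own mean, against 241 other named miRNAs. The 5 most like ssc-miR-224 were ssc-miR-10a-5p (0.49), ssc-miR-10a-3p (0.52), ssc-miR-196a (0.57), ssc-miR-320 (0.63) and ssc-miR-452 (0.68). Likeness to a miRNA chosen for being lower in black skin picks others with that direction, and nothing is read from it. The arms of miR-10a and miR-196a are made from HOX gene clusters, whose genes pattern the body from head to tail, and their matched precursors lie on chromosomes other than that of MIR224. ssc-miR-196a had 10.8 RPM in S03, 9.55 RPM in S04 and 8.56 RPM in S05 from black skin, against 66.4 RPM in S02, 55.5 RPM in S06 and 64.8 RPM in S07 from white skin. It was therefore low in all 3 black libraries by a like amount, without the higher value in S04 that ssc-miR-224 and ssc-miR-452 had. ssc-miR-10a-5p ranged from 1093 to 1370 RPM in black skin, against 3761 to 4747 RPM in white skin.

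The 5 most like ssc-miR-320 were ssc-miR-1296-5p (0.23), ssc-miR-296-3p (0.25), ssc-miR-221-3p (0.26), ssc-let-7c (0.26) and ssc-miR-210 (0.28), and ssc-miR-224 came at place 89. Their likeness to a miRNA chosen for being lower in black skin fixes that they are lower there too, and nothing is read from it. ssc-miR-1296-5p had 5.81 RPM in S03, 7.77 RPM in S04 and 5.78 RPM in S05 from black skin, against 9.31 RPM in S02, 16.0 RPM in S06 and 10.9 RPM in S07 from white skin. As for ssc-miR-320, S04 was its highest black library and S06 its highest white one, which the choice by likeness favours. ssc-miR-221-3p, named in the series' title as a regulator of the pigment gene TYRP1, ranged from 334.1 to 424.1 RPM in black skin, against 614.5 to 1147 RPM in white skin, and S04 was its lowest library. ssc-miR-210, known as a hypoxia-induced miRNA, averaged 89.7 ± 16.0 RPM in black skin and 153.9 ± 4.21 RPM in white skin (SD, n = 3 each). ssc-let-7c averaged 18237 ± 2240 RPM in black skin and 30161 ± 2110 RPM in white skin (SD, n = 3 each).

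**Figure D4:**
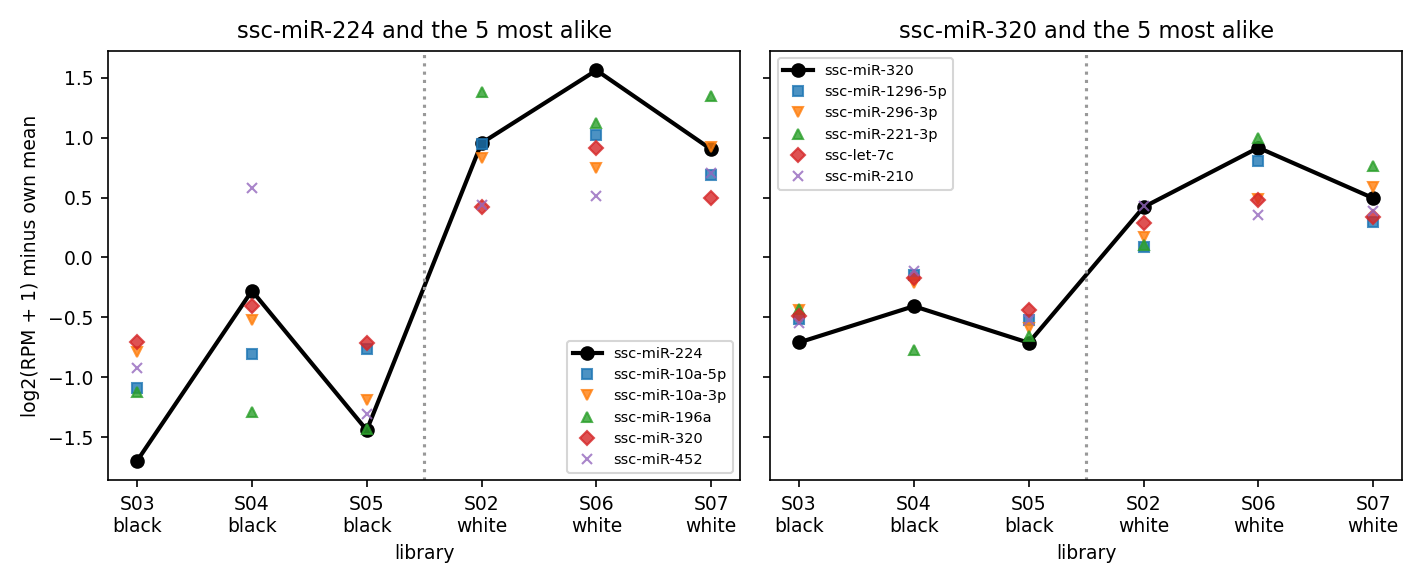
Log2(RPM + 1) minus each miRNA's own mean (vertical axis) in the 6 libraries, black skin left of the dotted line and white skin right of it, for ssc-miR-224 (left panel) and ssc-miR-320 (right panel) as black lines and the 5 named miRNAs most like each as symbols. In the left panel ssc-miR-452 stands above 0 in S04, and in the right panel ssc-miR-320 is at its highest in S06.

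The chromosome of each precursor gave comparison lists for both miRNAs. Of 28 tested miRNAs other than ssc-miR-224 whose matched precursors all lie on chromosome X, 4 rose and 1 fell in black skin (limma, adjusted p under 0.05), beside 18 and 14 of the 454 tested. Their median difference was -0.19, against 0.00 over all tested. The 454 include predicted identifiers, whereas this list holds named miRNAs only. Of 198 tested named miRNAs other than ssc-miR-320 with all matched precursors off chromosome X, 11 rose and 7 fell, with a median of -0.04. Those of the chromosome X list that rose were ssc-miR-374a-5p (0.999, limma adjusted p = 0.0329) and, from precursors that neighbour each other, ssc-miR-450a (1.45, 0.0318), ssc-miR-450c-5p (1.59, 0.0381) and ssc-miR-542-3p (1.53, 0.0318). Calls from neighbouring precursors are not independent. ssc-miR-450b-5p, whose precursor lies among them, did not pass (0.42, limma adjusted p = 0.441). Nor did ssc-miR-374a-3p, the other arm of the miR-374a precursor (0.53, limma adjusted p = 0.142). The 1 of the list that fell was ssc-miR-221-3p (-1.24, limma adjusted p = 0.0318). The abundant ssc-miR-98 (-0.04, adjusted p = 0.926) and ssc-miR-532-5p (-0.13, adjusted p = 0.718) did not pass, and both values turned above 0 (0.13 and 0.041) when the 10 most abundant miRNAs were left out. ssc-miR-224 had the lowest difference of the list, and nothing is read from this, since it was chosen for being low. Of the 28 others, 16 had a difference below 0 and 12 above. With 1 library left out the differences of the called miRNAs stayed about as large while the adjusted p often crossed 0.05. ssc-miR-374a-5p lay between 0.85 and 1.24, ssc-miR-542-3p between 1.30 and 1.67, ssc-miR-450a between 1.31 and 1.64, ssc-miR-450c-5p between 1.31 and 1.90 and ssc-miR-221-3p between -1.50 and -1.06. In these fits 0 of the list passed as higher without S03, S04, S05 or S06, and 1 without S07. ssc-miR-221-3p passed without S02 but not without any of the other 5 (limma, adjusted p 0.0516 to 0.0974). ssc-miR-450c-5p passed in none of the 6 (limma, adjusted p 0.0645 to 0.119), and with edgeR on recovered reads it missed the threshold at 1.78 (adjusted p = 0.0582).

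On chromosome 14, the chromosome of MIR320, the tested miRNAs other than ssc-miR-320 gave no call. Of 9 tested miRNAs other than ssc-miR-320 whose matched precursors all lie there, 8 had a difference below 0, beside 227 of all 454 tested, with a median of -0.44, beside 0.00. The 454 include predicted identifiers, and this list does not. Of the 198 tested named miRNAs off chromosome X, which include these 9 but not ssc-miR-320, 103 were below 0, with a median of -0.04. Of the 9, 0 passed (limma, adjusted p under 0.05), 3 had an unadjusted p under 0.05, as had 25.6% of all tested miRNAs, and 0 passed with edgeR or DESeq2 on recovered reads. In 5 of the 9 every black library was below every white one, a pattern seen in 13.9% of the tested miRNAs. ssc-miR-185 averaged 668 ± 72.3 RPM in black skin and 907 ± 73.4 RPM in white skin (SD, n = 3 each), a difference of -0.44 (limma, adjusted p = 0.154). The arms of miR-1306 share a precursor, ssc-miR-107 can share reads with its near-identical relative miR-103, and the list was drawn up after the table was seen. ssc-miR-202-5p, at 0.22, was the member above 0.

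**Figure D5:**
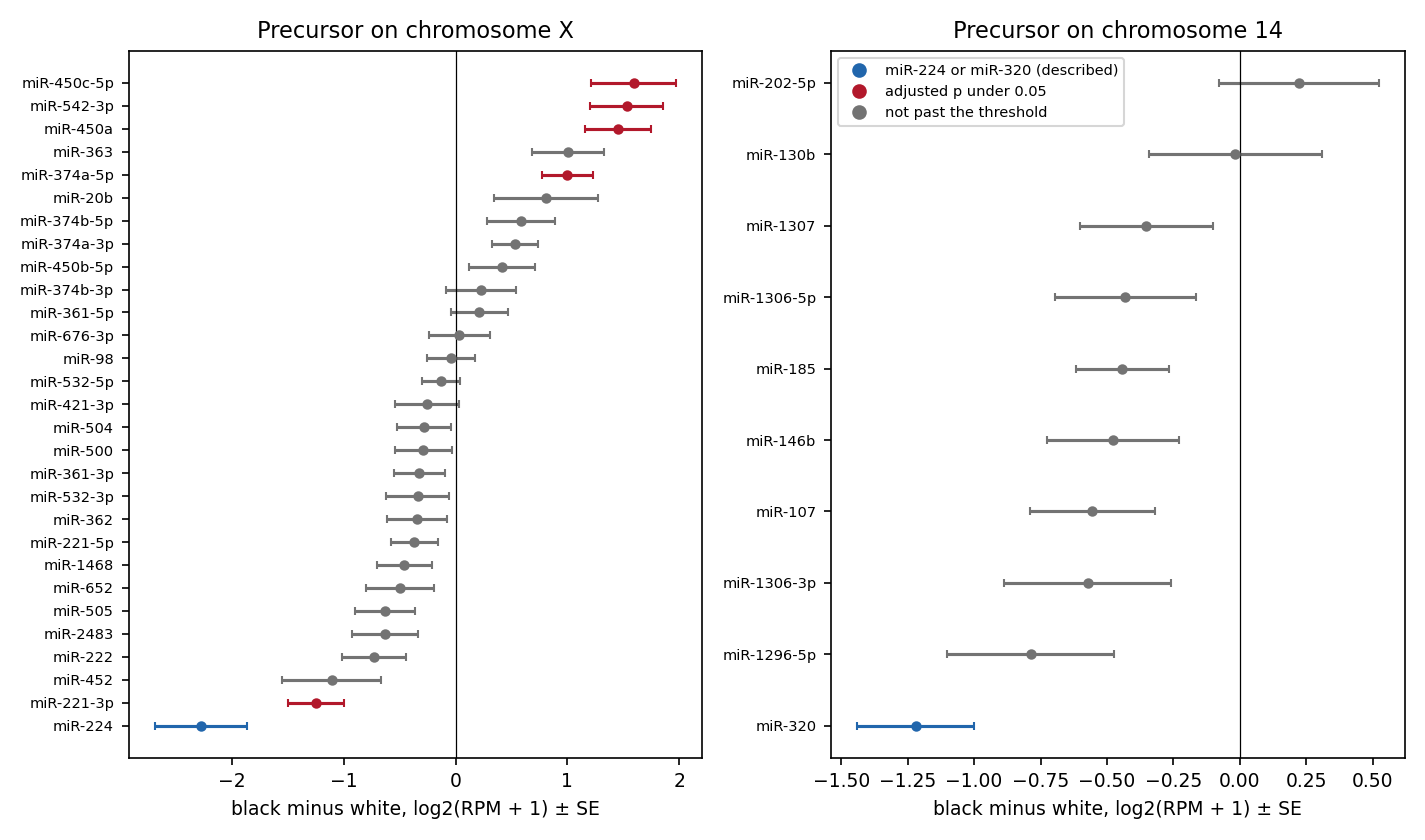
Difference between black and white skin (horizontal axis, black minus white in log2(RPM + 1), whiskers 1 fitted standard error) for tested miRNAs with all matched precursors on chromosome X (left panel) or chromosome 14 (right panel), 1 per line; blue marks ssc-miR-224 and ssc-miR-320, red an adjusted p under 0.05. Values on chromosome X run from -2.28 to 1.59, and on chromosome 14 from -1.22 to 0.22.

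Among miRNAs linked to TGF-beta signalling, a list that holds miR-224, those other than ssc-miR-224 gave 1 call, a rise. Of 8 tested members other than ssc-miR-224, 1 rose and 0 fell (limma, adjusted p under 0.05), beside 3.96% and 3.08% of all tested miRNAs. An unadjusted limma p under 0.05 was found for 3, beside 25.6%. The median was 0.40, against 0.00 over all tested, predicted identifiers included. Of the 8, 4 are arms of the neighbouring miR-143 and miR-145 precursors, which also serve as smooth muscle markers below. The arms of miR-199a share precursors too, so the 8 are not independent. ssc-miR-143-3p, a smooth muscle miRNA, averaged 69866 ± 10297 RPM in black skin and 28574 ± 3838 RPM in white skin (SD, n = 3 each; 1.29, limma adjusted p = 0.00314). ssc-miR-21, induced in many cell types by TGF-beta, gave 0.19 (limma, adjusted p = 0.730). ssc-miR-199a-3p gave -0.50 (limma, adjusted p = 0.134), and its values are identical to those of ssc-miR-199b-3p. Of the miRNAs known to bypass Drosha, only miR-320 is given here, and miR-484, miR-877, miR-1224 and miR-1225 are not analysed here.

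Marker miRNAs of other cell types moved with skin colour in part. The summed level of the endothelial miR-126 arms was 28989 to 35451 RPM in black skin and 17322 to 23899 RPM in white skin, and that of the 4 miR-143 and miR-145 rows of smooth muscle was 64998 to 84502 RPM in black skin and 26728 to 34192 RPM in white skin, both without overlap. Within the smooth muscle sum, ssc-miR-143-5p and ssc-miR-145-5p overlapped. The sums of the other lists overlapped, but a sum follows its most abundant rows. Rows without overlap within them included ssc-miR-142-3p and ssc-miR-499-5p, higher in black skin, and ssc-miR-214, ssc-miR-199a-3p and ssc-miR-486, lower. These rows were named because they did not overlap, and no shift of a cell type is read from them. In each of their lists other rows overlapped, and some of those had a difference of opposite sign. In the erythroid list, ssc-miR-144 (1.24) and ssc-miR-451 (-0.87) overlapped, beside ssc-miR-486 (-1.68). Of all 454 tested miRNAs, 63 had every black library below every white one and 61 had every one above. The 5 epithelial rows summed to 18739 to 25754 RPM in black skin and 23475 to 34650 RPM in white skin, and the 5 mesenchymal rows to 25075 to 34133 RPM in black skin and 29774 to 44259 RPM in white skin. The mesenchymal sum counts ssc-miR-199b-3p beside its identical row ssc-miR-199a-3p. The 4 leukocyte rows summed to 901 to 1570 RPM in black skin and 590 to 1321 RPM in white skin, and the 3 erythroid rows to 994 to 4298 RPM in black skin and 1723 to 4914 RPM in white skin. The 6 striated muscle rows summed to 959 to 1604 RPM in black skin and 678 to 2017 RPM in white skin. Of the names looked for, the miR-200 family members miR-141 and miR-200a to miR-200c, miR-203, miR-223 and miR-208b are not analysed here. In S04, the black library nearest to white skin for ssc-miR-224, the smooth muscle, leukocyte and striated muscle sums were the lowest of the black libraries (64998, 901 and 959 RPM) and the epithelial and mesenchymal sums the highest (25754 and 34133 RPM), with the endothelial and erythroid sums in the middle (31228 and 1271 RPM). Their part in the levels of ssc-miR-224 and ssc-miR-320 was not tested, and in whole skin fewer cells of a type and less RNA per cell cannot be told apart.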

How the data were processed

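The data are 1 table of values per miRNA in RPM that the authors deposited for 6 libraries. The unit was inferred from the column totals of 1000000. Per the submitters' processing notes, Bowtie (version not stated) and Sscrofa11.1 were used in roles they do not give. The counting tool, miRNA database release and filters: not given in the sources used here. All 6 columns were used. Every value in each library (100%) was a multiple of 1 read's worth within 0.001, so read numbers were recovered. RPM are shares of a library and move when an abundant miRNA changes. Intervals cover counting error only, since PCR copies are not independent molecules.

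Black and white skin were compared with limma 3.58.1 (R 4.3.3), using eBayes with a trend on log2(RPM + 1), Benjamini-Hochberg adjustment and a threshold of 0.05. It covered the 454 of 898 miRNAs kept by filterByExpr of edgeR 4.0.16 (minimum count 10, minimum total 15), and it was tested on simulated data. A fold change on this scale understates the change of scarce miRNAs. Alternatives covered TMM and RLE scaling, the pseudocount, the filter, the miRNAs included, edgeR and DESeq2 1.42.0 on recovered reads, and leaving out each library. No pair of libraries was a duplicate (chi-square per degree of freedom at least 249).

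The members, the lists (GABRE locus, Drosha-independent, TGF-beta-linked, chromosome X, cell type markers) and the tests were chosen with earlier results of these data known. Named miRNAs are the members, all listed relatives and the 5 most like each member. In the chromosome X and TGF-beta lists they are the 3 most abundant and up to 6 called. ssc-miR-205 is the most abundant of the epithelial rows. Other single rows of the cell type lists, ssc-miR-450b-5p and ssc-miR-374a-3p were outside this rule and named with their values known. The chromosome 14 list and ssc-miR-185, ssc-miR-107, ssc-miR-1306 and ssc-miR-202-5p in it were added after their values were seen. Precursors were matched for 265 of the 280 named miRNAs in a RefSeq gene table of Sscrofa11.1. miRNA sequences were not used here, so seed families were not compared.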

Additional observations from a re-analysis of the deposited data

How the results depend on the processing

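Both members, chosen for this direction, kept it in all 16 other fits. In the 6 fits that leave out 1 library this was fixed, since every black library lay below every white one. The difference of ssc-miR-224 lay between -2.71 and -2.0005 when 1 library was left out, and it was -1.49 with a pseudocount of 10, which is larger than most of its black values. That of ssc-miR-320 lay between -1.32 and -1.07 on leaving out 1 library and between -1.31 and -1.05 in the other fits. The black minus white difference of their log2 ratio was -1.60 to -0.95 without 1 library and -0.33 with a pseudocount of 10. Over all miRNAs, 7 to 37 were called without 1 library, and 53 with DESeq2. Leaving out the 10 most abundant miRNAs moved the median of all differences by 0.16, and leaving out predicted identifiers by -0.14; the calls were then 29 higher and 11 lower, and 16 higher and 19 lower. ssc-miR-452 ranged from -1.67 to -0.73 without 1 library. The chromosome X median was -0.12 with a pseudocount of 10, -0.27 with a filter of 10 RPM in 3 libraries, -0.28 without predicted identifiers, -0.025 without the 10 most abundant and -0.24 with DESeq2, and -0.19 to -0.10 without 1 library. The list had 0 to 4 higher and 0 to 1 lower calls without 1 library, and 2 higher with the 10 RPM filter, under which fewer miRNAs were tested. ssc-miR-98 turned to 0.13 without the 10 most abundant and to 0.19 without S07, and ssc-miR-532-5p to 0.041 without the 10 most abundant. The chromosome 14 median stayed between -0.53 and -0.27. Other causes were not tested. No paired analysis was possible because the labels do not name the animals, so whether black and white libraries are paired is not known. Of the members, ssc-miR-224 had the fewer reads, 37 in S03.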
